A study of Mus musculus with 8 samples.

Results

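The genes described here are 38 genes of G2 and M phase, the steps in which a cell prepares for division and then separates its chromosomes. They were given as a list of mouse symbols of known function, and each symbol was found once among the 55416 Ensembl gene rows of the deposited tables. All 38 passed the filter on low counts that left 14063 genes to test. RNA was measured in organoids of the mouse small intestine, which are three-dimensional cultures grown from intestinal epithelial cells of mice aged 4 to 8 weeks. Every culture, controls included, was C57BL/6 and carried Rosa26-rtTA (Tg/Tg) together with Col1A1-TetO-OSKM (Tg/Tg), a doxycycline-inducible transgene of reprogramming factors that the labels do not say was switched on. The 4 groups were control organoids at day 4, organoids given 6 Gy of X-rays at day 4, control organoids at day 7 and irradiated organoids at day 7, with 2 libraries each. From which event the days were counted, and whether the 2 libraries of a group came from separate mice or cultures, is not given in the labels, so that p-values measure the spread between these libraries, which may be technical.

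Library totals ran from 7541764 to 16054269 expected counts, and 1 count stood for 0.0623 to 0.133 CPM (counts scaled to the library total). That range is before the further scaling between libraries (TMM, of edgeR) that all CPM values below include. Markers of epithelium summed to 4049 to 7024 CPM over the 8 libraries. Markers of immune cells (8 genes) summed to 4.43 to 12.9 CPM, those of mesenchyme (8 genes) to 5.05 to 22.3 CPM and those of endothelium (6 genes, Cdh5 and Kdr at 0 counts) to 1.396 to 5.66 CPM. Replicates lay further apart at day 4, with a biological coefficient of variation of 0.136 in controls and 0.173 after irradiation, than at day 7, with 0.047 and 0.041. The edgeR fit of all 8 libraries pools the spread of the 4 groups for each gene. Its tests and intervals at day 7 therefore rest on the spread of day 4 as well.

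Entry into mitosis is driven by cyclin A and cyclin B bound to Cdk1, with Aurora and Polo kinases acting on spindle poles, centromeres and the cleavage site. The spindle checkpoint holds the anaphase-promoting complex (APC/C) back until every kinetochore is attached to microtubules. The complex then marks securin and cyclin B for destruction, sister chromatids part, and the midzone and the contractile ring divide the cell. Most of these genes are transcribed together, late in the cycle. Their promoters often carry a cell cycle genes homology region (CHR), a short element to which the MuvB complex binds, with MYBL2 and FOXM1 in cycling cells and as the repressive DREAM complex in resting cells. In the small intestine, division takes place in the crypt, among stem cells and transit-amplifying cells, and stops as cells differentiate into enterocytes and secretory cells. Ionising radiation stabilises p53, which induces the p21 inhibitor of cyclin-dependent kinases, the product of Cdkn1a.

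A promoter window of 250 bases before to 50 bases after the annotated start was held by the RefSeq table (GRCm38.p6) for 33 of the 38 genes. CHR letters, TTTGAA or TTCGAA on either strand, lay in the window of 26 of these 33 genes (78.8%), against 16.8% of the 9990 tested genes with a window and 21.7% of all 27025 genes of the table. Within 50 bases on either side of the start they lay in 23 of the 33 (69.7%), against 4.40% of tested genes. CCAAT letters, also searched on both strands, lay in 75.8% of the 33 and in 43.6% of tested genes, and 69.7% held both elements against 7.18%. The E2F letters GCGGGAA, common in promoters of DNA replication genes, lay in 0 of the 33 windows, in 9.80% of tested genes and in 40.5% of the 37 DNA replication genes with a window. These matches are descriptions of letters and not of binding.

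The stretches shown are those around the upstream CHR letters of the genes with the largest and the smallest fitted change at day 4 among those that hold such letters before the start. Each is printed 5′ to 3′ on the gene's own strand with the CHR letters in capitals. TTCAAA is TTTGAA on the other strand.
Mki67, chr7:135716457-135716512, minus strand: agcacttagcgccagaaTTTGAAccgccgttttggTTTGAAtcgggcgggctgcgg
Bub1b, chr2:118597988-118598043, plus strand: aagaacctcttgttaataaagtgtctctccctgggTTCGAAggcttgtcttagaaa
Espl1, chr15:102296231-102296286, plus strand: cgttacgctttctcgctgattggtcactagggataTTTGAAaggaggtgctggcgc
Top2a, chr11:99024192-99024247, minus strand: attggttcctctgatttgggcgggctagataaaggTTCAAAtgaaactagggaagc
Ube2c, chr2:164769865-164769920, plus strand: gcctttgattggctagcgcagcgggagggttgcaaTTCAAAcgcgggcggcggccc
Cdc20, chr4:118437344-118437396, minus strand: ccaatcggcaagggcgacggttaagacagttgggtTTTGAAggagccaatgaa
Ect2, chr3:27153972-27154027, minus strand: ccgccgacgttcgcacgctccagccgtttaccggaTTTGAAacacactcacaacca
Ckap2, chr8:22185900-22185955, minus strand: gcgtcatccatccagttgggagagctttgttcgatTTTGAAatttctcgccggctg
In Espl1, Top2a, Ube2c and Cdc20 the printed letters end 13 to 24 bases before the start, while in Bub1b they lie furthest upstream, ending 183 bases before it. Nuf2, Pttg1, Nusap1, Birc5, Cenpe, Mad2l1 and Ccnb1 had a window without CHR letters. The median log2 fold change at day 4, described below gene by gene, was -0.82 over the 26 genes with CHR letters and -0.70 over the 7 without.

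**Figure D1:**
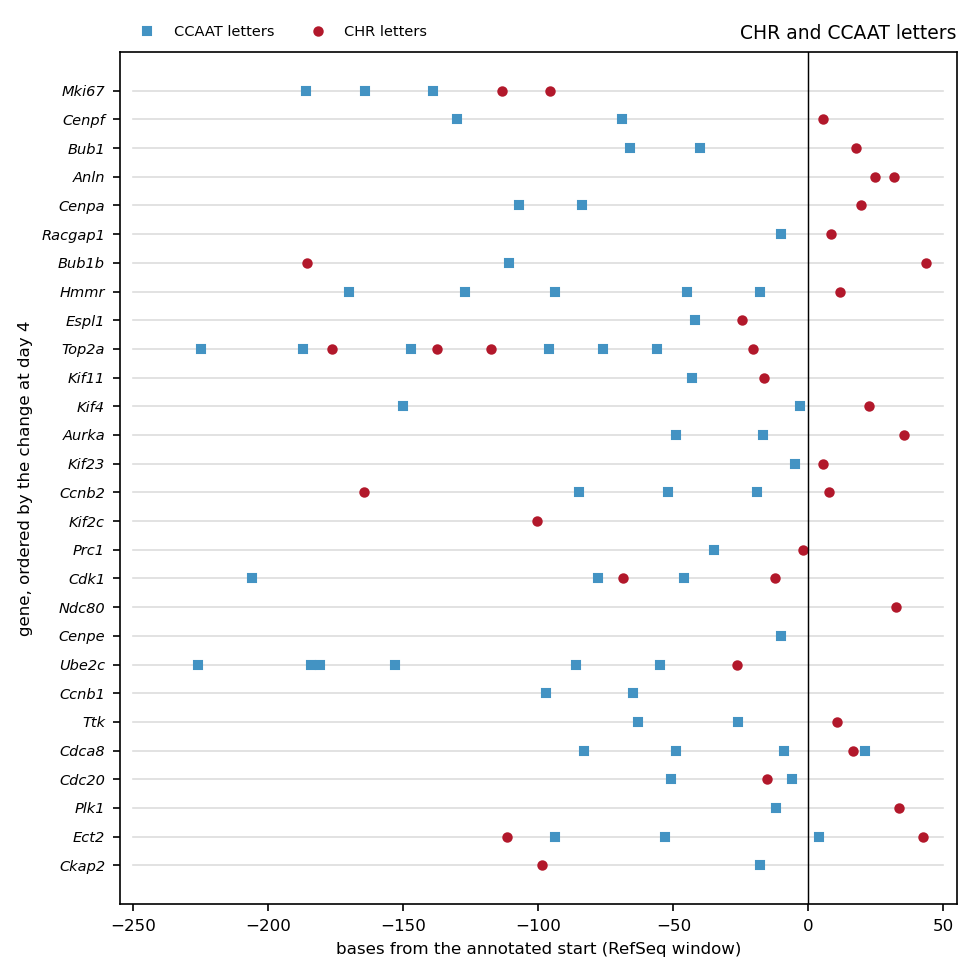
Position of CHR letters (red circles) and CCAAT letters (blue squares) in the RefSeq promoter window of the 28 genes that hold either, in bases from the annotated start (0), with 1 row a gene ordered by the change at day 4. In most rows CCAAT letters stand before the start and CHR letters within 50 bases of it, and genes with CHR letters appear at the top and at the bottom of the order.

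At day 4 every one of the 38 genes was lower in irradiated than in control organoids, and for 36 of them the fall passed the test (edgeR, adjusted p under 0.05), while 0 were called higher. The median log2 fold change was -0.80, against 0.00 over all genes tested, and 16.5% of all genes tested were called lower and 20.0% higher. Expressed as percent of control, the irradiated level ran from 45.3% (Mki67) to 86.8% (Ckap2), with a median of 57.3%. It was under 50% for 5 genes, from 50% to under 75% for 30 and from 75% to under 90% for 3. Both irradiated libraries lay below both control libraries for 37 of the 38, which 31.8% of all genes tested did too, and Ckap2 was the exception. In these bulk cultures fewer dividing cells and less RNA per dividing cell cannot be told apart.

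Irradiated replicate 2 was lower than irradiated replicate 1 for 38 of 38 genes at day 4, with a median log2 difference of -0.35 between them, against -0.02 over all genes tested. That library also had more transcripts of enterocytes and of the mitochondrial genome. The 12 enterocyte markers summed to 11560 CPM in replicate 1 and 18630 CPM in replicate 2, and mitochondrial transcripts took 20.3% and 27.6% of counts. Markers of immune cells summed to 10.9 and 12.9 CPM in the irradiated libraries and to 4.43 and 6.40 CPM in the controls of day 4, and 3 of the 4 that passed the filter rose (Csf1r, Lyz2 and Itgam), while Ptprc, the defining one, was at or below 0.109 CPM in all 4 libraries. The call of Itgam ended in 7 of the 8 fits with 1 library left out (adjusted p from 0.0524 to 0.268), all but the one without irradiated replicate 1 of day 4. Markers of Paneth cells, a secretory type of the crypt base, summed to 1193 and 836.1 CPM in controls and to 3032 and 4430 CPM in the irradiated libraries of day 4, and 5 of 6 rose (median 2.17). Markers of tuft cells summed to 14.4 and 13.5 against 3.01 and 4.57 CPM, and the 4 of 6 that passed the filter all fell, a count that was 2 without irradiated replicate 1. The part of these transcripts in the size of the fall was not tested. Without replicate 2 the members' median was -0.64 and 33 genes were called lower, and without replicate 1 it was -1.02 with 38 called. The control replicates differed by a median of -0.10 at day 4.

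**Figure D2:**
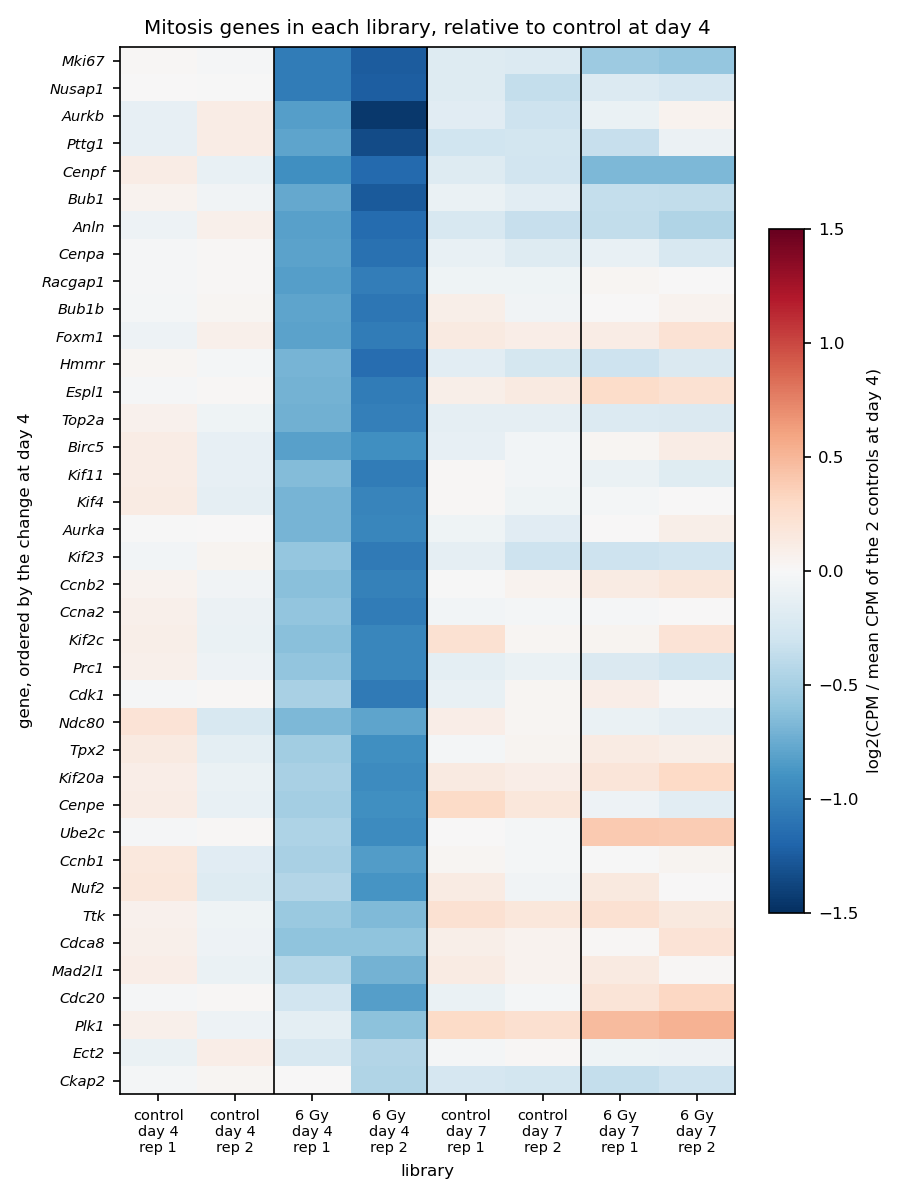
Level of each of the 38 genes in each of the 8 libraries, as log2 of the CPM over the mean CPM of the 2 controls at day 4 (colour scale), genes ordered by the fitted change at day 4. The 2 irradiated libraries of day 4 form a blue block, darker in replicate 2, and the day 7 libraries of both groups are near white except for genes such as Mki67, Cenpf and Ckap2 (blue) and Plk1 (red).

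The regulators of mitotic entry are 7 of the 38 genes, and 6 of them fell at day 4. Foxm1, the transcription factor of late cell cycle genes, was at 50.02 and 55.3 CPM in controls and at 30.3 and 25.4 CPM after irradiation, a log2 fold change of -0.92 ± 0.11 (SE, adjusted p = 0.0002). At day 7 the control libraries held 57.8 and 56.5 CPM and the irradiated ones 57.0 and 61.4 CPM. Its irradiated level thus overlapped the control level at day 7 and lay below it at day 4. Cdk1, the kinase that starts mitosis, read 78.0 and 79.5 CPM in controls and 56.0 and 37.8 CPM in irradiated organoids at day 4 (-0.75 ± 0.15, adjusted p = 0.00482), then 73.0 and 80.6 against 84.1 and 79.9 CPM at day 7. Its partner Ccna2 fell by 0.80 at day 4 (197.8 and 176.6 to 124.3 and 90.3 CPM). Ccnb2 fell by 0.80 and Ccnb1 by 0.65, both cyclins of the B type, to 57.3% and 63.9% of control. Aurka, the kinase of the spindle poles, fell to 56.2% of control.

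Plk1 was the entry gene not called at day 4. It encodes the Polo kinase that acts from entry to cytokinesis, and its 2 irradiated libraries at day 4 stood at 55.6 and 40.4 CPM, below the controls at 65.0 and 58.3 CPM, without passing the test (-0.36 ± 0.13, adjusted p = 0.0577). It was called at day 4 without irradiated replicate 1 (-0.62, adjusted p = 0.00082), with no filter (0.00273) and without mitochondrial genes (0.0498). At day 7 it was at 75.04 and 73.0 CPM in controls and 85.9 and 88.8 CPM after irradiation, 118.0% of control, and this was not called either (adjusted p = 0.282). None of the 7 entry genes was called at day 7 in the edgeR fit of all 8 libraries, and 0 had an unadjusted p under 0.05. All 7 fitted values were above 0, from 0.02 (Ccnb1) to 0.24 (Plk1).

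Of the chromosome passenger complex, which corrects wrong attachments and later directs cytokinesis, 3 subunits were on the list and 3 fell at day 4. Aurkb, its kinase, went from 46.9 and 54.9 CPM to 28.7 and 18.6 CPM (-1.11 ± 0.18, adjusted p = 0.00138). At day 7 it read 45.2 and 40.9 CPM in controls and 47.4 and 52.7 CPM in irradiated organoids, where both irradiated libraries were above both controls without a call (0.22 ± 0.17, adjusted p = 0.482). Birc5, the subunit survivin, fell from 63.1 and 53.8 to 33.3 and 30.8 CPM (-0.86 ± 0.11), and Cdca8, the subunit borealin, from 54.7 and 49.3 to 34.3 and 34.2 CPM (-0.60 ± 0.10). Aurkb had the widest gap between irradiated replicates at day 4, replicate 2 standing at 64.9% of replicate 1, and Cdca8 the narrowest, at 99.7%.

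All 5 centromere and kinetochore genes fell at day 4. Cenpf, a large kinetochore protein that accumulates in G2, went from 195.7 and 167.7 to 96.0 and 81.2 CPM (-1.04 ± 0.10, adjusted p = 5.72e-05). Cenpa, the histone H3 variant of centromeric chromatin, went from 54.96 and 56.3 to 31.8 and 25.7 CPM (-0.95 ± 0.12). For both genes the gap between groups was larger than the gap between replicates. Cenpe, the kinesin that carries chromosomes to the spindle equator, fell from 161.9 and 139 to 105.9 and 79.8 CPM (-0.69 ± 0.13). Ndc80 and Nuf2, partners in the complex that grips microtubules, fell to 60.4% and 64.2% of control. Nuf2 was not called when control replicate 1 of day 4 (adjusted p = 0.0648) or irradiated replicate 2 of that day (0.0676) was left out.

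At day 7 the median of this group was -0.18, and 4 of its 5 fitted values were below 0. Cenpf stood at 158.9 and 149.2 CPM in controls and at 113.7 and 113.5 CPM after irradiation, 73.8% of control, and was called lower (-0.44 ± 0.10, adjusted p = 0.0297). Cenpe stood at 184.2 and 168.7 against 142.4 and 134.6 CPM, 78.5% of control, and was not called (-0.35 ± 0.13, adjusted p = 0.126). Cenpa was at 98.7%, Ndc80 at 88.3% and Nuf2 at 102.7% of control, none of them called. With irradiated replicate 1 or 2 of day 4 left out, Cenpe was called lower at day 7 (adjusted p = 0.014 and 0.0151).

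The spindle checkpoint was represented by 4 genes, and 4 fell at day 4. Bub1, a checkpoint kinase of the kinetochore, went from 65.4 and 60.8 to 37.1 and 26.4 CPM (-0.99 ± 0.14, adjusted p = 0.000433). Bub1b, which encodes the APC/C inhibitor BubR1, went from 96.5 and 100.3 to 56.9 and 46.6 CPM (-0.93 ± 0.10). Ttk, the Mps1 kinase at the head of the pathway, and Mad2l1, the Mad2 protein that captures Cdc20, fell less, to 65.7% and 67.9% of control. All 4 had both irradiated libraries below both controls, as 31.8% of all genes tested did. At day 7 Bub1 read 58.7 and 56.6 against 49.3 and 48.7 CPM, 85.0% of control, with no call (adjusted p = 0.313). Bub1b, Ttk and Mad2l1 were at 101.2%, 99.2% and 99.2% of control.

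Anaphase and mitotic exit were covered by 4 genes, all of which fell at day 4. Pttg1, the securin that holds separase inactive, had the lowest CPM of the 4, at 17.7 and 20.9 CPM in controls and 11.2 and 7.62 CPM after irradiation (-1.04 ± 0.19). Espl1, separase itself, fell from 40.05 and 41.1 to 24.8 and 19.6 CPM (-0.87 ± 0.12). Ube2c, the ubiquitin-conjugating enzyme of the APC/C, fell from 69.5 and 71.1 to 51.1 and 36.6 CPM (-0.68 ± 0.13, adjusted p = 0.00267). Cdc20, the APC/C activator, fell from 52.2 and 53.2 to 43.2 and 29.7 CPM (-0.53 ± 0.15, adjusted p = 0.0183). This last call rested on single libraries: leaving out control replicate 2 of day 4 gave an adjusted p of 0.0787, and leaving out irradiated replicate 2 gave 0.0586 with a change of -0.29.

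At day 7 these 4 genes had the highest median of the groups, 0.23, and 0 of them were called by the edgeR fit of all libraries (1 had an unadjusted p under 0.05, and 0 were called by DESeq2 or limma-voom). Ube2c was at 70.8 and 69.2 CPM in controls and at 92.5 and 91.7 CPM in irradiated organoids, 131.6% of control with a 95% interval of 108.2% to 160.1% (0.40 ± 0.13, adjusted p = 0.0819). Its irradiated libraries lay above all 4 control libraries of either day. Cdc20 was at 49.4 and 51.6 against 60.2 and 65.6 CPM, 124.5% of control (0.32 ± 0.15, adjusted p = 0.206). Both were called higher without irradiated replicate 1 of day 4 (adjusted p = 0.00411 for Ube2c and 0.0321 for Cdc20) and without its replicate 2 (0.00331 and 0.0264). Espl1 and Pttg1 stood at 110.3% and 105.4% of control.

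Spindle assembly genes numbered 7, of which 6 fell at day 4. Nusap1, which bundles spindle microtubules, fell from 91.7 and 90.3 to 44.0 and 38.5 CPM (-1.14 ± 0.10, adjusted p = 2.18e-05). Hmmr, a spindle pole protein also known as a hyaluronan receptor, fell from 108.9 and 105.2 to 65.8 and 48.3 CPM (-0.91 ± 0.13). Of the kinesins, Kif11, which slides spindle poles apart, fell to 56.0%, the chromokinesin Kif4 to 56.1% and the microtubule depolymerase Kif2c to 58.1% of control. Tpx2, which activates Aurora A on microtubules, fell from 104.4 and 85.5 to 66.2 and 50.2 CPM (61.4% of control). At day 7 all 6 were between 91.8% (Kif11) and 106.5% (Tpx2) of control and none was called.

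Ckap2, a microtubule-associated protein of the spindle, was the 1 gene of this group not called at day 4. Its values were 51.5 and 53.5 CPM in controls and 52.7 and 38.4 CPM after irradiation at day 4, so that irradiated replicate 1 lay between the controls (-0.21 ± 0.13, adjusted p = 0.26). It was called without irradiated replicate 1 (-0.47, adjusted p = 0.00558). At day 7 it read 44.1 and 43.5 CPM in controls and 41.1 and 42.2 CPM in irradiated organoids. Ckap2 was also the 1 gene of the 38 whose irradiated level was not higher at day 7 than at day 4 in the fitted values (-0.13, adjusted p = 0.502).

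All 6 cytokinesis genes fell at day 4. Anln, the anillin scaffold of the contractile ring, went from 84.6 and 94.5 to 50.8 and 40.3 CPM (-0.98 ± 0.12), and Racgap1, a subunit of centralspindlin, from 85.9 and 88.0 to 48.9 and 42.5 CPM (-0.93 ± 0.09, adjusted p = 4.61e-05). Kif23, the kinesin of centralspindlin, fell to 57.3%, the midzone bundler Prc1 to 58.6% and the midzone kinesin Kif20a to 61.8% of control. Ect2, the exchange factor that activates RhoA at the cleavage site, fell least, from 100.3 and 115.3 to 91.5 and 79.5 CPM (-0.34 ± 0.10, adjusted p = 0.0208). Leaving out replicate 2 of day 4 ended the call, with an adjusted p of 0.122 for the control library and 0.0781 for the irradiated one. At day 7 the 6 genes were between 91.5% (Prc1) and 108.9% (Kif20a) of control with 0 calls in the edgeR fit and 0 unadjusted p-values under 0.05.

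Mki67 and Top2a had the highest CPM of the 38 genes, a value that grows with transcript length. Mki67, which encodes the Ki-67 protein that coats mitotic chromosomes and serves as the usual marker of proliferation, had the largest fall of the 38, from 1082 and 1054 to 517.6 and 449.5 CPM (-1.14 ± 0.09, adjusted p = 1.54e-05). Top2a, the topoisomerase that untangles sister chromatids, fell from 569 and 523.2 to 330.4 and 268.8 CPM (-0.87 ± 0.10). At day 7 Mki67 was at 930.6 and 929.5 CPM in controls and 730.2 and 716.8 CPM after irradiation, 77.8% of control, and was called lower (-0.36 ± 0.09, adjusted p = 0.0369). Top2a stood at 496.7 and 499 against 474.7 and 469.7 CPM, 94.8% of control, and was not called. In TPM, a unit that accounts for transcript length, Top2a led the controls of day 4 with 169.2 ± 5.16 (SD, n = 2), before Mki67 with 139.9 ± 6.36, Ccna2 with 122.1 ± 0.89 and Cdk1 with 108.3 ± 3.68, and Espl1 came last with 15.7 ± 5.15.

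Read as a whole, the comparison at day 7 gave 2 of the 38 genes called lower (Cenpf and Mki67) and 0 called higher, where 3.95% of all genes tested were called lower and 4.70% higher. The members' median log2 fold change was 0.02, against 0.00 over all genes tested. By unadjusted p under 0.05, 3 genes were lower and 1 higher, where 1775 of the 14063 genes tested were lower and 1862 higher. DESeq2 and limma-voom called the 2 genes lower and 0 higher. As percent of control the 38 genes ran from 73.8% to 131.6% with a median of 101.25%, and 26 of them lay between 90% and 110%. The 95% interval of 34 genes held 100%, which does not show that these genes were at the control level. These intervals also draw on the wider spread between libraries of day 4. Both irradiated libraries lay below both controls for 11 genes, above them for 12, and the groups overlapped for 15, where 32.6% and 33.3% of all genes tested lay wholly below and wholly above.

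The calls of Mki67 and Cenpf at day 7 were both lost when any 1 of the 4 libraries of day 7 was left out. Those fits leave 1 library in a group, and they called far fewer of all genes tested than the fit of all libraries. The changes kept their sign and ran from -0.37 to -0.31 for Mki67 and from -0.49 to -0.39 for Cenpf. In a fit of the day 7 libraries alone, 5 genes were called lower and 4 higher, with Ube2c (adjusted p = 3.67e-06), Cdc20 (0.000863), Plk1 (0.00262) and Aurkb (0.0393) among the latter. Calls were many in that fit, with 2284 of all 13041 genes tested called lower and 2448 higher. That fit uses the spread of day 7 only, and the SE of Ube2c was 0.06 in it against 0.13 with all libraries. On log2(TPM + 1), 0 genes were called in either direction and the change was -0.22 for Mki67 and -0.07 for Cenpf. The TPM scale moved the median of all genes by -0.17 at day 4 and by 0.12 at day 7, and relative to that shift the members' median was -0.80 and 0.00. It also moved the share of higher calls among all called genes, from 2808 higher and 2322 lower to 38.9% higher at day 4, and from 661 higher and 555 lower to 81.7% higher at day 7.

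Exon length, counted once per base over all annotated transcripts of a gene, went along with the day 7 values. Across the 38 genes, which share libraries and scaling, the Spearman correlation between exon length in GENCODE M21 and the log2 fold change was -0.69 at day 7 and -0.21 at day 4, and across 14030 tested genes it was -0.24 and -0.03. Cenpf (15433 exon bases), Mki67 (10061), Anln (9063) and Top2a (9013) are the longest of the list. The 1631 tested genes at least as long as Top2a had a median of -0.18 at day 7 and -0.04 at day 4. The part of length in the lower values of Cenpf and Mki67 at day 7 was not tested.

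**Figure D3:**
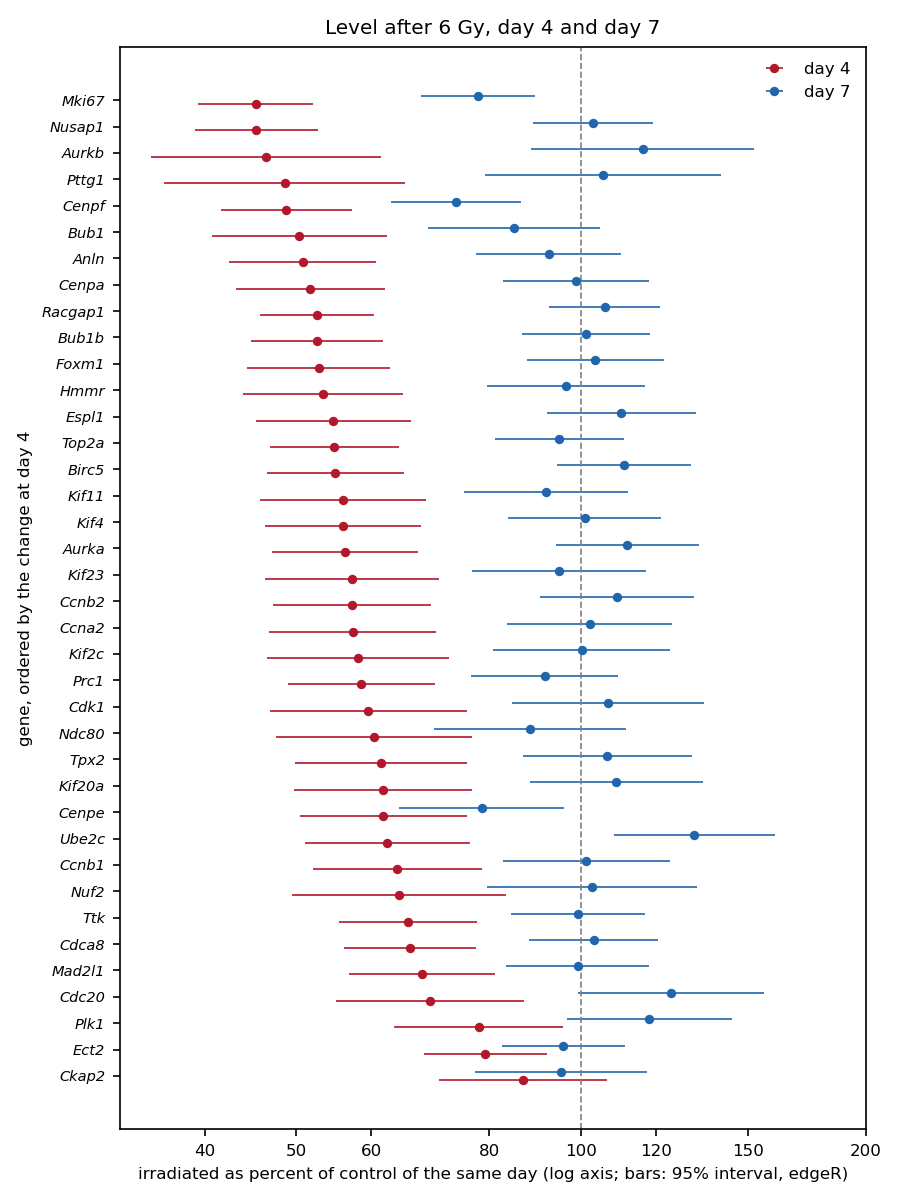
Irradiated level as percent of the control of the same day for each of the 38 genes at day 4 (red) and day 7 (blue), on a log axis with 95% intervals from the edgeR fit; the dashed line is 100%. At day 4 the points run from 45.3% to 86.8%, and at day 7 from 73.8% to 131.6%, with Cenpf and Mki67 furthest to the left and Ube2c furthest to the right.

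The difference between the irradiation effects of day 7 and day 4 was positive for all 38 genes, and 30 of them passed the test of that difference, against 4.60% of all genes tested called higher and 5.51% called lower. The median was 0.81, against -0.04 over all genes. Aurkb had the largest difference (1.32 ± 0.25, adjusted p = 0.0137), followed by Nusap1 (1.18 ± 0.14, adjusted p = 0.00161), and Ckap2 the smallest (0.13 ± 0.19, adjusted p = 0.701). The 8 genes not called were Ndc80, Cenpe, Ccnb1, Nuf2, Mad2l1, Plk1, Ect2 and Ckap2. Depending on which library was left out, 8 to 35 genes were called: 8 without either control of day 7, 9 and 11 without irradiated replicate 1 and 2 of day 7, 21 and 26 without control replicate 1 and 2 of day 4, and 35 and 28 with the irradiated replicate 1 or 2 of day 4 removed. Foxm1, Aurka, Birc5, Bub1b, Nusap1, Racgap1 and Ube2c were called in each of these 8 fits. On log2(TPM + 1) 9 genes were called.

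From day 4 to day 7 the irradiated organoids gained transcripts of 36 of the 38 genes and 0 fell, with a median log2 change of 0.79, where 14.7% of all genes tested were called higher and 18.3% lower. This comparison shares the irradiated libraries of day 4 with the one above. Espl1 rose most (1.12 ± 0.12, adjusted p = 0.000262), from 24.8 and 19.6 to 49.2 and 47.4 CPM, followed by Foxm1 (1.09 ± 0.12) and Aurkb (1.08 ± 0.18). Cenpf rose least among the called genes (0.36 ± 0.10, adjusted p = 0.025), and that call ended when irradiated replicate 2 of day 4 (adjusted p = 0.0999) or either irradiated library of day 7 (0.0803 and 0.0828) was left out. Cenpe, Kif23, Ndc80, Nuf2 and Pttg1 also lost this call with 1 irradiated library left out (adjusted p from 0.051 to 0.0807). Ect2 (0.27 ± 0.10, adjusted p = 0.0606) and Ckap2 were not called. With 1 library left out, Ect2 was called higher in 3 fits (adjusted p = 0.0309 and 0.0362 without control replicate 1 and 2 of day 4, 0.0115 without irradiated replicate 1), and Ckap2 lower in 1 (-0.33, adjusted p = 0.042 without irradiated replicate 2 of day 4). Both irradiated libraries of day 7 were above both of day 4 for 37 genes, as for 32.6% of all genes tested.

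In control organoids, 0 of the 38 genes were called between day 4 and day 7 by edgeR, DESeq2 or limma-voom. In the edgeR fit 3 had an unadjusted p under 0.05, as did 2520 of all 14063 genes tested. Among all genes tested 1.46% were called lower and 1.25% higher. The members' median was -0.03, with a range from -0.29 (Pttg1) to 0.27 (Plk1). Anln (-0.29 ± 0.11, adjusted p = 0.204) was called lower without irradiated replicate 1 of day 4 (adjusted p = 0.0479).

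Summed over the 38 genes, the level was 4525 and 4276 CPM in controls and 2680 and 2147 CPM after irradiation at day 4, which puts the irradiated replicates at 60.9% and 48.8% of the control mean. At day 7 the sums were 4181 and 4094 CPM in controls and 3889 and 3883 CPM after irradiation, 94.0% and 93.9% of the control mean. In TPM the sum was 110.3% and 113.3% of the control mean at day 7, so that its side of the control level depended on the unit. At day 4 it was below control in both units (62.4% and 39.96% in TPM). The TPM sums include a shift of all genes: on log2(TPM + 1) their median moved by 0.12 at day 7 and -0.17 at day 4. The 12 enterocyte markers, which are transcripts of non-dividing cells, all rose at day 4 (median 2.79) and 5 rose at day 7 (Alpi, Apoa1, Anpep, Krt20 and Slc2a2), a count that ran from 2 to 9 with 1 library left out, 2 being without control replicate 1 of day 7. They summed to 3593 and 3256 CPM in controls and to 11560 and 18630 CPM after irradiation at day 4, and to 2930 and 2926 against 4631 and 4639 CPM at day 7. The 6 crypt stem cell markers summed to 1767 and 1866 against 964.5 and 1053 CPM at day 4 and to 3022 and 2977 against 2006 and 2007 CPM at day 7. Lgr5, Olfm4 and Smoc2 were lower and Rnf43 higher at day 4, where the call of Olfm4 ended without control replicate 2 of day 4 (adjusted p = 0.0522) and that of Rnf43 without the same library, irradiated replicate 1 of day 4 or either control of day 7 (0.058 to 0.119). At day 7 Lgr5 and Olfm4 were lower. The call of Lgr5 ended without irradiated replicate 2 of day 7. That of Olfm4 ended without any 1 library of day 7 or either control of day 4. Most day 7 calls over all genes tested also ended without a library of day 7. The part of these cell types in the level of the mitosis genes was not tested.

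**Figure D4:**
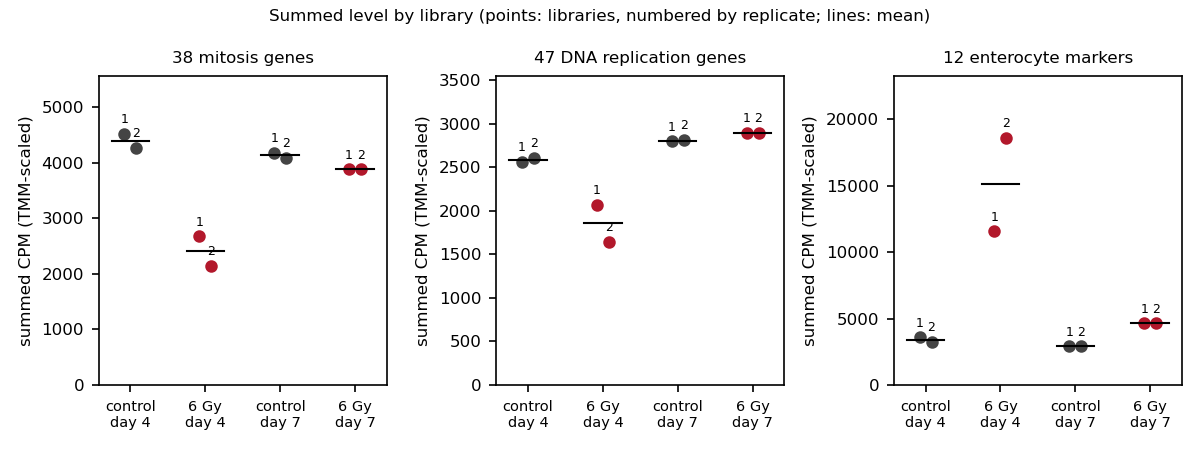
Summed CPM (TMM-scaled) of the 38 mitosis genes, of 47 DNA replication genes and of 12 enterocyte markers in each library, with points numbered by replicate and lines at the group mean. The mitosis and replication sums are lowest in irradiated replicate 2 of day 4, where the enterocyte sum is highest, and at day 7 the irradiated libraries stand close to the controls for the first 2 lists.

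Other genes of the same processes, taken from lists that do not contain the 38, moved in the same direction at day 4 in most cases. These lists were chosen with earlier results of these data known, so they are not independent support. Of 17 further genes of mitotic entry, 14 fell and 1 rose (median -0.82), led by G2e3, Cks2, Cdc25b and Bora. Among the Cdc25 phosphatases that activate Cdk1, Cdc25b (-1.04) and Cdc25c (-1.16) fell and Cdc25a, which acts mainly at the G1/S step, was at 0.10 without a call. Of 37 further kinetochore and centromere genes, 29 fell and 1 rose (median -0.68), with Kntc1 at -1.11. Of 28 further spindle and cytokinesis genes, 26 fell and 1 rose (median -0.71), with Kif15 at -0.81 and Kif20b at -0.79. Condensin and cohesin genes fell in 17 of 19 cases (median -0.48), among them Smc4 and Ncapg. APC/C genes fell in 4 of 17 cases (median -0.15). These were the inhibitor Fbxo5 (-1.06) and the subunits Anapc5 (-0.61), Cdc16 (-0.43) and Anapc1 (-0.40). Among all genes tested 16.5% were called lower and 20.0% higher, so that the APC/C count is not far from that share. Leaving out 1 library gave 19 to 28 kinetochore calls and 19 to 27 spindle calls, the fewest without irradiated replicate 2 of day 4.

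The genes of these lists that rose at day 4 were Gtse1, Zwint and Psrc1, singled out after their values were seen. Psrc1, a spindle protein, went from 14.3 and 23.5 to 50.2 and 47.03 CPM (1.35, adjusted p = 0.000649). Gtse1, a regulator of p53 and of microtubules, went from 21.6 and 24.8 to 46.0 and 29.4 CPM (0.70, adjusted p = 0.015), a call that ended when replicate 1 of the controls (adjusted p = 0.0881) or of the irradiated libraries (0.0938) was left out. Zwint, a kinetochore protein, went from 74.6 and 69.8 to 100.1 and 89.1 CPM (0.39, adjusted p = 0.00994), with 0.0612 without control replicate 2. In all 3 the irradiated libraries lay above both controls, which their choice as genes called higher makes likely. The same held for 33.4% of all genes tested and for 0 of the 38 genes.

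DNA replication genes, which mark the preceding S phase, fell in 29 of 47 cases at day 4 with 0 higher (median -0.51), led by Lig1, Tipin, Pola1 and Tk1. For these lists too, the share of all genes tested was 16.5% called lower and 20.0% higher. The count of replication genes changed when single libraries of day 4 were left out. Of 19 tested regulators of the RB, E2F and MuvB kind, 10 fell and 1 rose (median -0.34). The gene that rose was Cdkn1a, from 59.8 and 84.1 to 224 and 273.8 CPM (1.79, adjusted p = 8.23e-05). E2f8 (-0.88), E2f2 (-0.76), Rbl1 (-0.54), E2f1 (-0.61, adjusted p = 0.022) and Mybl2 (-0.44, adjusted p = 0.0282) fell, and Trp53 was at -0.07 without a call. Leaving out irradiated replicate 2 of day 4 ended the calls of E2f1 and Mybl2 (adjusted p = 0.13 and 0.158), as did leaving out control replicate 2 (0.0587 and 0.0517) and, for Mybl2, control replicate 1 (0.0665). The count of 10 was 6 with control replicate 2 of day 4 left out. Of 11 tested G1 regulators 5 fell (Cdkn1b -0.99, Cdkn2c -1.10, Cdk2 -0.82, Cdkn2d -1.16 and Cdk4 -0.41), and 3 rose, the inhibitor Cdkn2b (1.51) and the D cyclins Ccnd2 (1.03) and Ccnd1 (0.93, adjusted p = 0.0169, or 0.0708 with irradiated replicate 1 left out). The call of Cdkn2d ended without control replicate 2 (-0.82, adjusted p = 0.146) and with irradiated replicate 1 left out (0.0611). Cdkn2d, Cdk4 and Cdkn2b are named after their values were seen.

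At day 7 few of these genes were called, where 3.95% of all genes tested were called lower and 4.70% higher. The edgeR fit called 1 of the 17 entry genes lower (G2e3, -0.37), 3 of the 19 condensin and cohesin genes lower (the cohesin loader Nipbl, -0.49, and the cohesin regulators Wapl, -0.39, and Pds5a, -0.30) and 1 of the 11 G1 regulators lower (Cdk6, -0.46). Those genes, other than G2e3, were singled out after their values were seen. Each of these calls ended when any 1 library of day 7 was left out, as did most calls over all genes tested. The edgeR fit of all libraries called 0 of the kinetochore, spindle, APC/C and DNA replication genes, of which 4, 7, 1 and 0 had an unadjusted p under 0.05. For the 19 condensin and cohesin genes that number was 8, all of them lower. Their median of -0.20 was the lowest of these lists. Over all 14063 genes tested the number was 3637, of which 1775 were lower. Cdkn1a was at 45.2 and 49.2 CPM in controls and at 75.4 and 74.8 CPM after irradiation (0.67, adjusted p = 0.0423), and Trp53 at 73.3 and 81.3 against 102.8 and 107.6 CPM (0.44, adjusted p = 0.0493). Both calls were lost without any 1 library of day 7, as were most calls over all genes tested. That of Trp53 was also lost without either control library of day 4.

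**Figure D5:**
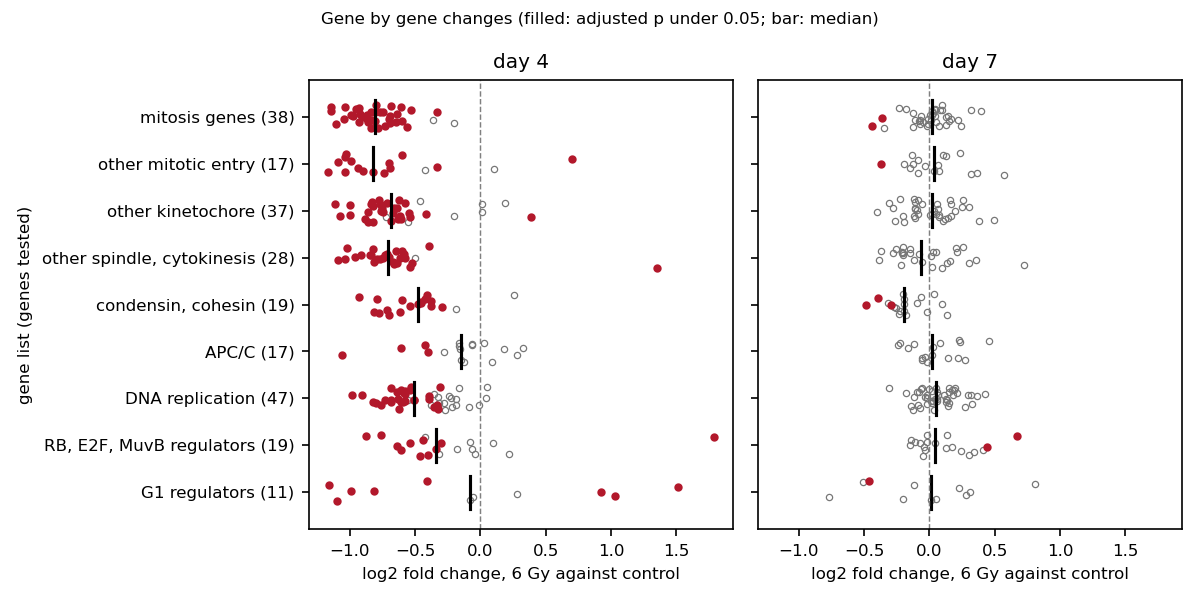
Log2 fold change of each gene, 6 Gy against control, at day 4 and day 7, for the 38 mitosis genes and 8 other lists (number tested in brackets), with filled points for adjusted p under 0.05 and a bar at the median. At day 4 the mitosis medians lie between -0.82 and -0.68 and the APC/C and G1 medians near 0, and at day 7 all medians lie between -0.20 and 0.05.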

How the data were processed

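RNA was sequenced from 8 poly-A libraries in 4 groups of 2. The authors deposited expected counts and TPM per Ensembl gene, per the file headers. Per the submitters' processing notes, reads passed through Trim Galore and FastQC, RSEM 1.3.3 and STAR 2.7.3a, with mm10 and GRCm39 both named. Which build served which step, the annotation release and the strand setting: not given in the sources used here. The kit keeps strand, per the labels' protocols, but reads of genes that overlap on opposite strands (Kif20a with Cdc23 over 29.3% of its exon bases, Ube2c with Tnnc2, Kif4 with Pdzd11, Ccna2 with Exosc9, Prc1 with Rccd1) may be mixed. Symbols came from GENCODE M21 for 52083 of 55416 IDs. Each column matched 1 sample and 0 columns were left unused.

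Expected counts were rounded (11.4% of values were not whole). The filter of edgeR (minimum count 10, minimum total 15) kept 14063 genes and at least 99.8% of each library's counts. The test was that of edgeR 4.0.16 (robust quasi-likelihood, TMM, 4 group means in 1 fit, 4 residual degrees of freedom, two-sided), adjusted by Benjamini-Hochberg over all genes tested and called at an adjusted p under 0.05. CPM are TMM-scaled, SE and 95% intervals are those of the fit, and percent of control is the fitted fold change. The script was tested on simulated counts. Library totals limit precision little for these genes; with 2 libraries a group the spread between libraries does. Replicate numbers are shared by the groups, but nothing in the labels pairs them.

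Other settings tried were limma-voom (limma 3.58.1), DESeq2 1.42.0, edgeR with size factors from DESeq2, a filter of 5 CPM in 2 libraries or none, limma-trend with a pseudocount of 1 or 0.1 on TPM (log2, genes of TPM 1 in 2 libraries, or all), only the groups compared, the replicate block, no mitochondrial genes, each library left out, and, added after seeing the data, limma-voom with weights by group. On the log2(TPM + pseudocount) scale changes of low genes are understated.

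The members and all lists were chosen with earlier results of these data known. All 38 members are accounted for; from each other list at most 4 genes with the smallest p at day 4 are named, with Cdkn1a, E2f1, Mybl2, Trp53, Ccnd1 and the Cdc25 genes whatever their values. Promoter stretches follow the rule given beside them. Lin54 of the regulators and the promoters of Foxm1, Aurkb, Tpx2, Ccna2 and Kif20a were not analysed here. The promoter orientation was checked on transcripts: 26 of 35 windows had their start found in the gene's own transcripts, and 0 ran in reverse.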

Additional observations from a re-analysis of the deposited data

Results flagged for a closer look

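For 30 of the 38 genes the effect of irradiation differed between the days by the test of the difference itself (edgeR, adjusted p under 0.05). The values are the log2 effect at day 7 less that at day 4, and all are above 0. Among entry genes it was 0.97 for Foxm1, 0.99 for Aurka, 0.93 for Ccnb2, 0.83 for Ccna2 and 0.84 for Cdk1. In the passenger complex it was 1.32 for Aurkb, 1.01 for Birc5 and 0.65 for Cdca8. At the kinetochore it was 0.60 for Cenpf and 0.93 for Cenpa, and in the spindle checkpoint 0.76 for Bub1, 0.94 for Bub1b and 0.60 for Ttk. Of the anaphase genes, Pttg1 differed by 1.12, Espl1 by 1.01, Ube2c by 1.08 and Cdc20 by 0.85. Of the spindle genes, Nusap1 differed by 1.18, Hmmr by 0.85, Kif11 by 0.71, Kif4 by 0.85, Kif2c by 0.78 and Tpx2 by 0.79. Of the cytokinesis genes, Anln differed by 0.86, Racgap1 by 1.01, Kif23 by 0.73, Prc1 by 0.64 and Kif20a by 0.82. Mki67 differed by 0.78 and Top2a by 0.79. Cenpf and Mki67 thus passed the test of the difference and were called below control at both days, though not at day 7 on the TPM scale. Ube2c was below control at day 4 and at 131.6% of it at day 7, which was not called (edgeR, adjusted p = 0.0819). Most of these 30 calls of the difference, with those of Cenpf and Mki67, were lost in some fit with 1 library left out.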

How the results depend on the processing

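No value of a member changed sign with a call under any of the 20 alternatives. The count of members lower at day 4 (36) was 17 on unfiltered log2(TPM + 1), 34 with only the groups compared (Cdc20 and Ect2 lost) and 33 to 38 with 1 library left out. At day 7 the count lower (2) was 0 on log2(TPM + 1), 0 on log2(TPM + 0.1) and 0 on unfiltered TPM, 5 with only the groups compared, 4 with weights by group and 0 to 3 with 1 library left out. The count higher at day 7 (0) was 2 without a filter, 4 with only the groups compared, 3 with weights by group and 0 to 2 with 1 library left out. Members whose effect differed between the days (30) numbered 9, 10 and 0 on the 3 TPM settings and 8 to 35 with 1 library left out. With 1 library left out, 0 to 1 member was lower from day 4 to day 7 in controls and 0 to 1 after irradiation. Counts over all genes tested moved with the setting as well. At day 7 the main fit called 555 lower and 661 higher of 14063. With weights by group these were 1968 and 2152. With only the groups compared they were 2284 and 2448 of 13041, and without a filter 670 and 1374 of 30447. The cause of these changes was not tested, except that the unfiltered TPM fit tests 30697 genes in place of 14063. By its design, the fit of only the groups compared uses the spread of those groups alone.

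With the replicate block the counts were 37 lower at day 4 (Plk1 added), 3 lower at day 7 (Cenpe added), 34 for the difference between the days and 36 for the rise after irradiation. The deviations of same-numbered libraries correlated between -0.035 and 0.058 across groups. Such a correlation cannot tell whether same-numbered libraries came from the same mouse or culture, which the labels do not give. A fit that leaves out 1 library gives a group a lone library, assumed to vary like the rest.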
